A study of Mus musculus with 18 samples.

Results

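*Apoe*, *Abca1*, *Abcg1*, *Trem2*, *Gpnmb*, *Lpl*, *Cd36*, *Plin2*, *Fabp5* and *Spp1* are 10 genes of lipid handling and of the Trem2-Spp1 state of macrophages. They were taken by name from the 21254 genes of the count table, and all 10 were among the 15811 genes with enough counts to be tested. The rule names the genes and uses no measured value, though the set was chosen with earlier results of these data known. Their levels were followed in 3 sorted populations of mouse lung monocytes and macrophages, in WT and Ezr-KOm animals.

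Lung cells were sorted 24 h after the mice, aged 3 to 5 months, had inhaled LPS of *Pseudomonas aeruginosa* (12.5 mg in 5 ml, nebulized over 15 min), and all 18 libraries come from such lungs. Ly6C+ monocyte-derived macrophages (moMs) were CD45+CD11b+MHC-II-Ly6C+, transitional interstitial macrophages (tnsIMs) were CD45+CD11b+MHC-II+Ly6C+ and mature interstitial macrophages (matIMs) were CD45+CD11b+MHC-II+Ly6C-, and each population and genotype had 3 libraries. By the methods, CD11c+ cells, which hold alveolar macrophages and dendritic cells, and granulocytes, told by CD24 and MHC-II, were gated away before these populations were drawn. Ezr-KOm mice are B6 animals with floxed *Ezr*, the gene of the membrane and actin linker ezrin, crossed with a *Cx3cr1*-Cre line, and the WT mice carry the same Cre without the floxed allele. The *Cx3cr1* promoter has low activity in classical dendritic cells, eosinophils and NK cells as well, and the labels name the replicates by number without saying which cells came from which animal, so the p-values measure the spread between these libraries.

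Library totals ran from 16512783 to 48460995 counts, and levels are given as CPM, read counts scaled to library size with the TMM factors of edgeR. *Ezr* was read first. In moMs it stood at 503, 593 and 497 CPM in WT and 282, 160.0 and 252 CPM in Ezr-KOm, in tnsIMs at 679, 515 and 565 against 234, 126 and 213 CPM, and in matIMs at 741, 632 and 611 against 167, 93.8 and 144 CPM. Every Ezr-KOm library lay under every WT library of its population, and transcript remained in each of them. The difference passed an adjusted p of 0.05 in tnsIMs (log2 fold change -1.62, SE 0.24, adjusted p = 0.00365) and matIMs (log2 fold change -2.29, SE 0.25, adjusted p = 7.73e-05), and in moMs it did not (log2 fold change -1.20, SE 0.24, adjusted p = 0.0549). All 14 monocyte and macrophage markers, led by *Lyz2* and *Cd14*, were above 3 counts in every group. Their summed level was 36356 to 42963 CPM in WT moMs and 13100.0 to 15349 CPM in WT matIMs. That of 12 dendritic cell markers, led over all libraries by *Ccl22* and *Ccr7*, was 137 to 196 CPM in WT moMs and 5975 to 8118 CPM in WT matIMs. *Ccl22* and *Ccr7* themselves had means of 6.15 and 13.5 CPM in WT moMs and 2633 and 1815 CPM in WT matIMs.

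Macrophages take up lipid from lipoproteins, surfactant and dying cells, and either store it in droplets, burn it or hand it back to lipoproteins. Free cholesterol leaves through ABCA1 and ABCG1 onto acceptors such as apolipoprotein E, LPL releases fatty acids from triglyceride, CD36 takes up fatty acids and oxidized lipoproteins, FABP5 carries fatty acids inside the cell, and PLIN2 coats the lipid droplets. TREM2 is a surface receptor for lipids and apolipoproteins that signals through TYROBP. GPNMB, a glycoprotein of lysosomes and melanosomes, and osteopontin, the secreted product of *Spp1*, are common marks of lipid-laden and of scar-associated macrophages, also in the lung.

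The 250 bases before the annotated start are printed for 4 of the genes. *Apoe*, *Trem2* and *Spp1* were chosen because they were the members lower in matIMs than in moMs in both genotypes. *Cd36* was chosen because it was higher in both, and *Fabp5*, also higher in both, had no entry. The sequences are those of RefSeq in the build GRCm38.p6, which differs from the GRCm39 of the counts. 7 of the 10 genes had an entry, with 10 entries in all, and *Abcg1*, *Lpl* and *Fabp5* had none. *Apoe* (chr7:19699189-19699438, minus strand) and *Spp1* (chr5:104434861-104435110, plus strand) have several entries, and the most upstream is shown, beside *Trem2* (chr17:48346151-48346400, plus strand) and *Cd36* (chr5:17835897-17836146, minus strand). Capitals mark matches to the motifs searched on both strands.
Apoe: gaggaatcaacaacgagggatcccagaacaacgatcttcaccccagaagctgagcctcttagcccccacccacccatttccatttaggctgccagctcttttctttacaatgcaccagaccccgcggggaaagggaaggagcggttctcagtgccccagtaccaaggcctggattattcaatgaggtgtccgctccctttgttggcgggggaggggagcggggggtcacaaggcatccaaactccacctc
Trem2: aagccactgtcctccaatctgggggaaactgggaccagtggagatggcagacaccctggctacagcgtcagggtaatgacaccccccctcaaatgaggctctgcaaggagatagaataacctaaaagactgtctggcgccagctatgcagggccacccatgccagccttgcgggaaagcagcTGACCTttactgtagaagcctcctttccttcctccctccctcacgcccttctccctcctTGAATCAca
Spp1: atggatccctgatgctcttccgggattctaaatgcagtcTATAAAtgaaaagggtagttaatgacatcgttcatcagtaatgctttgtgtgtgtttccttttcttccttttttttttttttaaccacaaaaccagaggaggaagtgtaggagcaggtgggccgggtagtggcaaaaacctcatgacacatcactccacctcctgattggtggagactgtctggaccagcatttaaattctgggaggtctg
Cd36: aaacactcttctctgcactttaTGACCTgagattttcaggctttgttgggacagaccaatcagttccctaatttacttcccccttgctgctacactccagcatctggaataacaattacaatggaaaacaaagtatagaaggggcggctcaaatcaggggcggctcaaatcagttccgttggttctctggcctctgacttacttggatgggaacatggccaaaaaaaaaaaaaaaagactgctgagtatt

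The motifs were searched from 250 bases before to 50 bases after the start. AGGTCA, the core of nuclear receptor sites, is held by 16.3% of all 32851 promoters in the table, TGANTCA, the AP-1 site, by 7.81%, CACGTG, the E-box, by 7.15%, and TATAAA, the TATA box, by 13.6%. *Trem2* held TGACCT, the other strand of AGGTCA, 68 bases and TGAATCA 9 bases before its start. *Cd36* held TGACCT 228 bases before its start and *Plin2* 218 bases before, and *Plin2* also held CACGTG 4 bases before. *Abca1* held CACGTG 147 and TATAAA 29 bases before its start. *Spp1* held TATAAA 211 bases before the first of its starts. The second of the 3 *Apoe* entries held TATAAA on both strands, at 100 and 96 bases before its start, where the matches overlap, and in the entry printed no motif was found. In *Gpnmb* TGACTCA lay 8 bases after the start. These matches are descriptions of the letters.

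Per length, *Apoe* was the highest member in each population. In WT moMs its level was 1139 CPM per kb of the canonical transcript, followed by *Spp1* at 389.5, *Plin2* at 382, *Lpl* at 157, *Fabp5* at 100.4, *Trem2* at 53.6, *Cd36* at 29.9, *Gpnmb* at 14.4, *Abcg1* at 10.5 and *Abca1* at 2.55 CPM per kb. The ranges of *Spp1* and *Plin2* overlapped, and no other neighbours in that order did. In WT tnsIMs the order was *Apoe* (866), *Plin2* (444), *Spp1* (426), *Lpl* (231), *Fabp5* (123), *Cd36* (77.5), *Trem2* (35.9), *Gpnmb* (15.9), *Abcg1* (14.3) and *Abca1* (2.40 CPM per kb), with overlaps of *Plin2* with *Spp1*, *Spp1* with *Lpl*, *Fabp5* with *Cd36* and *Gpnmb* with *Abcg1*. In WT matIMs *Apoe* (383 CPM per kb) overlapped with *Fabp5* (346), and *Fabp5* with *Plin2* (297). *Spp1* (155) and *Lpl* (154) also overlapped there, followed by *Cd36* (48.1), *Trem2* (21.5), *Gpnmb* (12.6) and *Abcg1* (10.4), which overlapped, and *Abca1* (1.71). *Fabp5* ranked 5 in WT moMs and 2 in WT matIMs. With all annotated exons as the length, *Trem2* ranked 9 instead of 7 in tnsIMs and matIMs, and *Spp1* ranked 2 instead of 4 in WT matIMs.

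**Figure D1:**
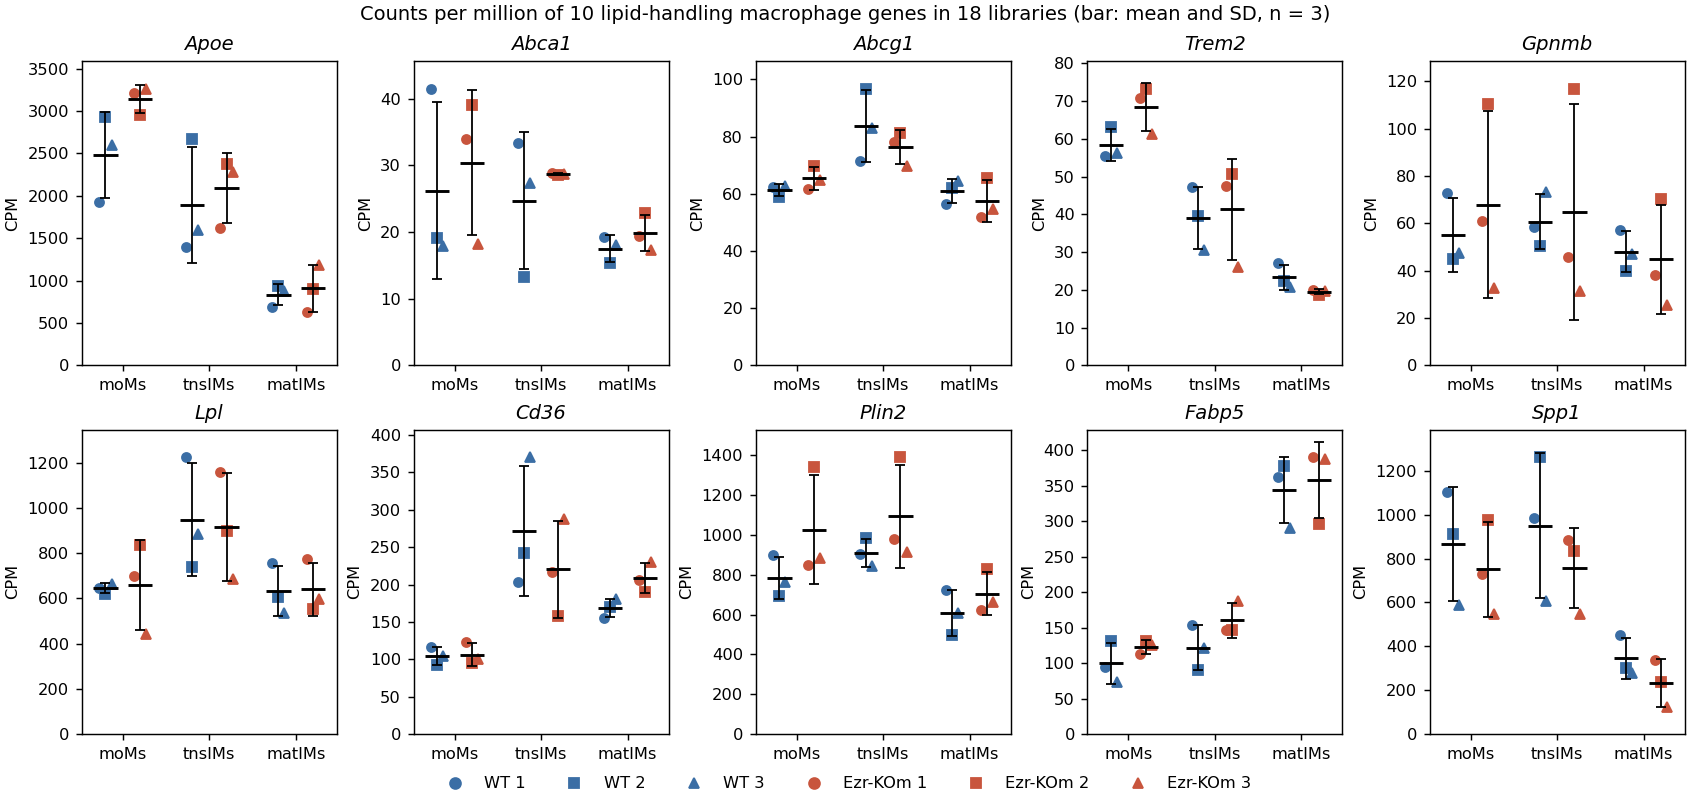
Level of each of the 10 genes in the 18 libraries, as CPM (y axis, from 0) by population (x axis), with 1 point a library, shaped by its number and coloured by genotype, and a bar for the mean ± SD of 3 libraries. *Apoe*, *Trem2* and *Spp1* were lower in matIMs than in moMs without overlap, *Fabp5* was higher in matIMs (291 to 389.9 CPM) and *Cd36* higher in tnsIMs than in moMs.

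The first question was how these genes differ along the order from recruited to mature macrophages. In each genotype 6 of them passed the test between tnsIMs and matIMs, 5 of them as falls. The sets differed, with *Cd36* among the falls only in WT and *Plin2* only in Ezr-KOm. In WT, tnsIMs had 2 of the 10 genes higher and 1 lower than moMs at an adjusted p under 0.05 (edgeR quasi-likelihood test with Benjamini-Hochberg adjustment over all genes tested), against 13.0% and 8.61% of all genes. WT matIMs had 2 higher and 3 lower than moMs, against 13.4% and 11.4% of all genes. Against WT tnsIMs, they had 1 higher and 5 lower, against 8.32% and 10.2%. In Ezr-KOm the counts were 1 higher and 1 lower in tnsIMs against moMs (9.23% and 5.04% of all genes), 2 higher and 3 lower in matIMs against moMs (12.5% and 10.7%), and 1 higher and 5 lower in matIMs against tnsIMs (8.37% and 9.85%). The median log2 fold change of the 10 genes from tnsIMs to matIMs was -0.58 in WT and -0.53 in Ezr-KOm, beside 0.037 and 0.015 over all genes. From moMs to tnsIMs it was 0.18 and 0.051, beside 0.015 and 0.0086, and from moMs to matIMs -0.28 and -0.57, beside 0.013 and 0.0067. The count of 3 in WT tnsIMs against moMs was 1 without WT moMs number 2 or number 3, and the count of 2 in Ezr-KOm was 1 without Ezr-KOm moMs number 1, 2 or 3, without Ezr-KOm tnsIMs number 3, or with upper-quartile normalization. Over the alternatives the count for matIMs against tnsIMs ranged from 4 to 8 in each genotype, and that for matIMs against moMs from 4 to 6 in WT and from 5 to 7 in Ezr-KOm, so the order of these comparisons by count was not fixed. In bulk samples fewer cells of a type and less RNA per cell cannot be told apart.

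**Figure D2:**
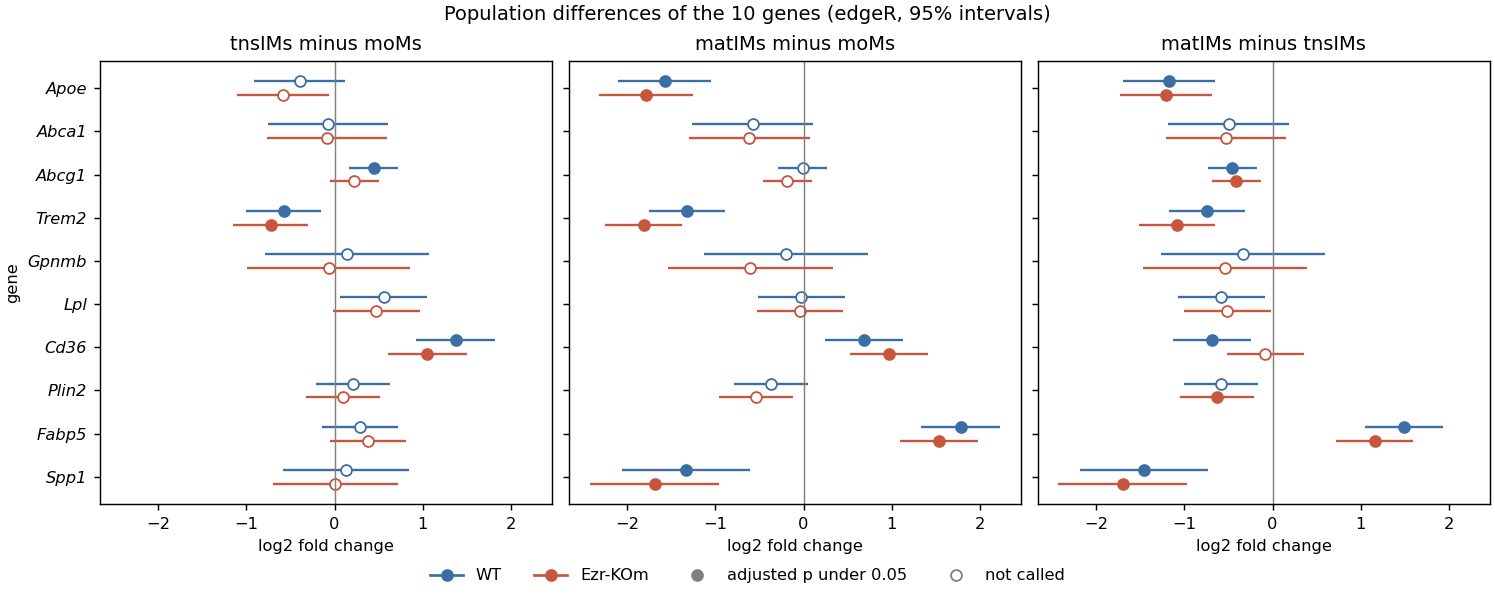
Log2 fold change of each gene between populations (x axis) in WT (blue) and Ezr-KOm (red), with 95% intervals of the edgeR fit, filled where the adjusted p was under 0.05. *Apoe*, *Trem2* and *Spp1* lay left of 0 and *Fabp5* and *Cd36* right of it in matIMs minus moMs, in both genotypes.

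Among the genes of cholesterol efflux, *Apoe* was lower in matIMs than in moMs and tnsIMs in both genotypes. The gene (chromosome 7, 19430034 to 19433113, minus strand, GRCm39) encodes apolipoprotein E, which accepts cholesterol from the cell. WT moMs held 1928, 2924 and 2601 CPM, WT tnsIMs 1397, 2670.3 and 1601 CPM and WT matIMs 691, 934 and 878 CPM. The WT matIM libraries all lay under the tnsIM and moM libraries, and those of tnsIMs and moMs overlapped. WT matIMs were 2.98-fold lower than moMs (log2 fold change -1.57, SE 0.25, adjusted p = 0.000125) and 2.26-fold lower than tnsIMs (log2 fold change -1.18, SE 0.25, adjusted p = 0.00211). Ezr-KOm moMs held 3215, 2948 and 3262 CPM, tnsIMs 1614, 2379.7 and 2284 CPM and matIMs 634, 899 and 1188 CPM. Here the 3 populations did not overlap at all, and matIMs were lower than moMs (log2 fold change -1.79, SE 0.25, adjusted p = 3.48e-05) and than tnsIMs (log2 fold change -1.21, SE 0.25, adjusted p = 0.00177). From moMs to tnsIMs the Ezr-KOm libraries gave log2 fold change -0.59, SE 0.25, adjusted p = 0.130. This fall passed with a block by genotype and replicate number (log2 fold change -0.62, adjusted p = 0.00998). Whether a number marks an animal is not in the labels. An opposite-strand gene, Gm71725, shares 521 bases, or 12.9%, of the exons of *Apoe*.

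Of the cholesterol exporters, *Abcg1* passed the test at some steps and *Abca1* at none. *Abcg1* (chromosome 17, 31276649 to 31336962, plus strand), which moves cholesterol onto HDL, was highest in tnsIMs. WT moMs held 62.5, 58.9 and 62.8 CPM, tnsIMs 71.3, 96.7 and 83.0 CPM and matIMs 56.4, 61.9 and 64.5 CPM, and each tnsIM library exceeded every moM and matIM library. In WT the rise to tnsIMs was log2 fold change 0.45, SE 0.13, adjusted p = 0.0217, and it missed the threshold without WT moMs number 2 (0.42, adjusted p = 0.0714), WT moMs number 3 (0.46, adjusted p = 0.0541) and WT tnsIMs number 2 (0.35, adjusted p = 0.0750). The fall to matIMs was log2 fold change -0.46, SE 0.13, adjusted p = 0.0201, and it was lost without WT tnsIMs number 2 (-0.37, adjusted p = 0.0658) and WT matIMs number 1 (-0.44, adjusted p = 0.0573). Ezr-KOm moMs held 61.6, 69.8 and 64.7 CPM, tnsIMs 78.1, 81.2 and 69.6 CPM and matIMs 52.0, 65.6 and 54.8 CPM, and the moM and tnsIM libraries overlapped. There matIMs were lower than tnsIMs (log2 fold change -0.41, SE 0.13, adjusted p = 0.0369), which was lost with library totals as the scaling (adjusted p = 0.0789), with Ezr-KOm fitted alone (0.0590), and without Ezr-KOm tnsIMs number 1 (-0.40, adjusted p = 0.0775), Ezr-KOm tnsIMs number 2 (-0.36, adjusted p = 0.125), Ezr-KOm matIMs number 1 (-0.39, adjusted p = 0.102) and Ezr-KOm matIMs number 3 (-0.41, adjusted p = 0.0860). Between matIMs and moMs the 95% interval of *Abcg1* was -0.29 to 0.27 in WT. *Abcg1* was the steadiest member, with an SD within groups of 0.14 on the log2 scale, at percentile 5.69 of all genes.

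*Abca1* (chromosome 4, 53030787 to 53159895, minus strand), which loads cholesterol onto lipid-poor apolipoproteins, was the lowest member per length and varied from library to library. WT moMs held 41.5, 19.2 and 17.9 CPM, tnsIMs 33.3, 13.3 and 27.4 CPM and matIMs 19.2, 15.3 and 18.035 CPM. The Ezr-KOm libraries held 34.0, 39.0 and 18.2 CPM in moMs, 28.9, 28.5 and 28.8 CPM in tnsIMs and 19.5, 22.8 and 17.4 CPM in matIMs. The highest WT moM and tnsIM library both carried number 1, and the Ezr-KOm matIM libraries lay under the tnsIM libraries. The means were 26.2, 24.7 and 17.5 CPM in the 3 WT populations from moMs to matIMs and 30.4, 28.8 and 19.9 CPM in Ezr-KOm, lowest in matIMs in both. No population comparison of *Abca1* passed, and from moMs to matIMs its 95% interval was -1.26 to 0.11 in WT and -1.30 to 0.070 in Ezr-KOm.

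*Trem2*, the lipid receptor, was lower at each step from moMs to matIMs. It lies on chromosome 17, 48653429 to 48661175, plus strand. WT moMs held 55.6, 63.2 and 56.3 CPM, tnsIMs 47.1, 39.5 and 30.7 CPM and matIMs 27.1, 22.3 and 20.6 CPM, and Ezr-KOm moMs held 70.8, 73.2 and 61.3 CPM, tnsIMs 47.5, 50.6 and 26.0 CPM and matIMs 20.0, 18.7 and 19.7 CPM. In neither genotype did a population overlap with another. WT matIMs were 2.50-fold lower than moMs (log2 fold change -1.32, SE 0.21, adjusted p = 9.72e-05), and Ezr-KOm matIMs 3.52-fold lower (log2 fold change -1.81, SE 0.21, adjusted p = 3.23e-06), and both calls held in each alternative tried. From tnsIMs to matIMs the Ezr-KOm fall was log2 fold change -1.09, SE 0.21, adjusted p = 0.000815. The WT fall over that step was log2 fold change -0.74, SE 0.21, adjusted p = 0.0145, and it was lost without WT tnsIMs number 1 (-0.60, adjusted p = 0.0951), WT matIMs number 2 (-0.75, adjusted p = 0.0596) and WT matIMs number 3 (-0.68, adjusted p = 0.0679).

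The first *Trem2* step, from moMs to tnsIMs, was nearer the threshold. In WT it was log2 fold change -0.58, SE 0.20, adjusted p = 0.0492. It missed the threshold with DESeq2 (adjusted p = 0.0507), upper-quartile normalization (0.128), library totals (0.0780), no filter on low counts (0.0696), a minimum of 10 counts in every library (0.0847), and without WT moMs number 1 (-0.61, adjusted p = 0.0929), WT moMs number 2 (-0.50, adjusted p = 0.173), WT moMs number 3 (-0.60, adjusted p = 0.112), WT tnsIMs number 2 (-0.55, adjusted p = 0.150) and WT tnsIMs number 3 (-0.41, adjusted p = 0.212). In Ezr-KOm it was log2 fold change -0.72, SE 0.20, adjusted p = 0.0205, and missed it with upper-quartile normalization (adjusted p = 0.0636) and without Ezr-KOm moMs number 1 (-0.65, adjusted p = 0.0922), Ezr-KOm moMs number 2 (-0.66, adjusted p = 0.0924), Ezr-KOm moMs number 3 (-0.77, adjusted p = 0.0532) and Ezr-KOm tnsIMs number 3 (-0.44, adjusted p = 0.105). The lowest tnsIM library in each genotype was number 3. An opposite-strand gene, Gm65654, shares 433 bases, or 8.75%, of the exons of *Trem2*.

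*Gpnmb* (chromosome 6, 49013480 to 49047863, plus strand), the lysosomal glycoprotein, showed no population difference that passed the main test, which had no block. Its libraries spread widely. WT moMs held 73.0, 44.8 and 47.7 CPM, tnsIMs 58.3, 50.5 and 73.3 CPM and matIMs 57.1, 39.9 and 47.2 CPM. The Ezr-KOm libraries held 60.9, 110.5 and 32.6 CPM in moMs, 46.0, 117 and 31.6 CPM in tnsIMs and 38.3, 70.4 and 25.7 CPM in matIMs. The Ezr-KOm library numbered 2 was the highest and that numbered 3 the lowest of its group in all 3 populations. With the block by genotype and number, Ezr-KOm matIMs were lower than tnsIMs (log2 fold change -0.44, adjusted p = 0.0470). Without the block this was log2 fold change -0.54, SE 0.44, adjusted p = 0.496.

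Among the genes of fatty acid supply, *Cd36* was highest in tnsIMs and *Fabp5* in matIMs. *Cd36* (chromosome 5, 17986688 to 18093799, minus strand), the scavenger receptor and fatty acid transporter, stood at 116, 92.7 and 105 CPM in WT moMs, 203, 242 and 369.9 CPM in tnsIMs and 155, 169.8 and 180.1 CPM in matIMs. The populations did not overlap in WT. WT tnsIMs were 2.60-fold higher than moMs (log2 fold change 1.38, SE 0.21, adjusted p = 0.000160). WT matIMs were 1.61-fold higher than moMs (log2 fold change 0.69, SE 0.21, adjusted p = 0.0230), a call lost without WT moMs number 2 (0.58, adjusted p = 0.0936), WT moMs number 3 (0.66, adjusted p = 0.0637), WT matIMs number 2 (0.65, adjusted p = 0.0581) and WT matIMs number 3 (0.63, adjusted p = 0.0629). They were lower than tnsIMs (log2 fold change -0.69, SE 0.21, adjusted p = 0.0275), a call lost without WT tnsIMs number 3 (-0.45, adjusted p = 0.129), WT matIMs number 1 (-0.66, adjusted p = 0.0655) and WT matIMs number 2 (-0.72, adjusted p = 0.0542). The WT tnsIM library numbered 3 stood above the other two.

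In Ezr-KOm *Cd36* stood at 123, 95.7 and 99.999 CPM in moMs, 216, 158 and 287 CPM in tnsIMs and 205, 190.5 and 229.9 CPM in matIMs. Both tnsIMs (log2 fold change 1.05, SE 0.21, adjusted p = 0.00228) and matIMs (log2 fold change 0.97, SE 0.21, adjusted p = 0.00223) exceeded moMs without overlap, and these calls held in each alternative tried. Between matIMs and tnsIMs the Ezr-KOm libraries overlapped, with a difference of -0.080 (95% interval -0.52 to 0.36) on the log2 scale. The step in Ezr-KOm minus the step in WT was 0.61 (95% interval -0.017 to 1.24), with an unadjusted p of 0.0557 and an adjusted p of 1.000 in the edgeR fit, so a difference between the genotypes was not detectable.

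*Fabp5* (chromosome 3, 10077608 to 10081667, plus strand), the fatty acid carrier, had the largest rise to matIMs among the 10 genes. WT moMs held 94.2, 131 and 74.1 CPM, tnsIMs 153, 90.6 and 122 CPM and matIMs 362, 378 and 291 CPM, and Ezr-KOm moMs held 112, 131 and 126 CPM, tnsIMs 146, 146 and 188 CPM and matIMs 389.9, 296 and 388 CPM. Every matIM library exceeded every moM and tnsIM library. WT matIMs were 3.45-fold higher than moMs (log2 fold change 1.79, SE 0.21, adjusted p = 4.54e-06) and 2.82-fold higher than tnsIMs (log2 fold change 1.50, SE 0.21, adjusted p = 4.38e-05). In Ezr-KOm the fold was 2.90 against moMs (log2 fold change 1.54, SE 0.21, adjusted p = 2.44e-05) and 2.23 against tnsIMs (log2 fold change 1.16, SE 0.21, adjusted p = 0.000519). All 4 calls held in each alternative tried. Near-identical copies of *Fabp5* can share its reads: Gm6166, at 97.6% identity, had 5 to 45 counts a library, and 3 further copies in the table had at most 18.

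*Lpl* (chromosome 8, 69333143 to 69360100, plus strand), the secreted triglyceride lipase, had its highest mean in tnsIMs. WT moMs held 647, 621 and 666 CPM, tnsIMs 1224, 738 and 885 CPM and matIMs 755, 607 and 536 CPM. In Ezr-KOm the values were 699, 835 and 444 CPM, 1161, 896 and 685 CPM and 775, 552 and 597 CPM in the same order. WT tnsIMs lay above moMs without overlap, and the matIM and tnsIM libraries overlapped in both genotypes. The main test did not pass for WT tnsIMs against moMs (log2 fold change 0.56, SE 0.24, adjusted p = 0.101), and with the block by genotype and number it did (log2 fold change 0.53, adjusted p = 0.0257). For matIMs against tnsIMs the WT difference was log2 fold change -0.58, SE 0.24, adjusted p = 0.101, and with the block log2 fold change -0.57, adjusted p = 0.0183. In Ezr-KOm it was log2 fold change -0.51, SE 0.24, adjusted p = 0.160, and with the block log2 fold change -0.48, adjusted p = 0.0450.

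*Plin2* (chromosome 4, 86566623 to 86588297, minus strand), the droplet coat protein, was lower in matIMs than in tnsIMs in Ezr-KOm, and in WT the same step lay at the threshold. WT moMs held 898, 692 and 762 CPM, tnsIMs 905, 983 and 842 CPM and matIMs 723, 495 and 607 CPM, and the WT matIM and tnsIM libraries did not overlap. The WT difference missed the threshold (log2 fold change -0.58, SE 0.20, adjusted p = 0.0515). It passed with the block by genotype and number (log2 fold change -0.60, adjusted p = 0.00150) and with DESeq2 (adjusted p = 0.0215). In Ezr-KOm the libraries held 851, 1341 and 883 CPM in moMs, 978, 1388 and 913 CPM in tnsIMs and 623, 829.6 and 663 CPM in matIMs. Number 2 was the highest in each. The Ezr-KOm matIM libraries lay under the moM libraries as well (log2 fold change -0.54, SE 0.20, adjusted p = 0.0603), which passed with DESeq2 (adjusted p = 0.0478). Ezr-KOm matIMs were lower than tnsIMs (log2 fold change -0.63, SE 0.20, adjusted p = 0.0337), a call lost with library totals (adjusted p = 0.0544), with Ezr-KOm fitted alone (0.0656), and without Ezr-KOm tnsIMs number 2 (-0.42, adjusted p = 0.217), Ezr-KOm matIMs number 1 (-0.59, adjusted p = 0.0989) and Ezr-KOm matIMs number 3 (-0.62, adjusted p = 0.0894).

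*Spp1* (chromosome 5, 104582984 to 104588916, plus strand), which encodes the secreted integrin ligand osteopontin, was lower in matIMs. WT moMs held 1103, 913 and 589 CPM, tnsIMs 984, 1261 and 605 CPM and matIMs 453, 302 and 279.6 CPM. Ezr-KOm moMs held 731, 978 and 547 CPM, tnsIMs 886, 835 and 548 CPM and matIMs 339.7, 236 and 123 CPM. In both genotypes the matIM libraries lay under all others, moMs and tnsIMs overlapped, and number 3 was the lowest library of each group. WT matIMs were 2.52-fold lower than moMs (log2 fold change -1.33, SE 0.35, adjusted p = 0.00754) and 2.75-fold lower than tnsIMs (log2 fold change -1.46, SE 0.35, adjusted p = 0.00515). In Ezr-KOm the falls were 3.23-fold (log2 fold change -1.69, SE 0.35, adjusted p = 0.00133) and 3.25-fold (log2 fold change -1.70, SE 0.35, adjusted p = 0.00165). These calls held in each alternative tried. A same-strand gene model, Gm42793, shares 362 bases, or 12.7%, of the exons of *Spp1*, and had 27 to 326 counts a library.

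The summed markers of several other cell types also differed between the WT populations, and those of T and NK cells overlapped. The 14 alveolar macrophage markers, led by *Chil3* and *Slc7a2*, summed to 5562 to 6781 CPM in WT moMs, 1312 to 1906 CPM in WT tnsIMs and 773 to 1020.4 CPM in WT matIMs. This sum was lower at each step towards matIMs, as *Trem2* was, but *Chil3* alone made up most of it in moMs and tnsIMs. From moMs through tnsIMs to matIMs, the WT means of *Chil3* were 5905, 1217 and 338 CPM. Those of *Slc7a2* were 181, 200 and 155 CPM, with no fall at the first step. The fall of the sum was thus mainly that of *Chil3* and need not hold for the other list genes. The sum of the monocyte and macrophage list was also lower at each step, at 21668 to 31930.2 CPM in WT tnsIMs. The 12 dendritic cell markers, at 352 to 644 CPM in WT tnsIMs, were highest in matIMs, as *Fabp5* was. The 12 alveolar epithelial markers, led over all libraries by *Sftpa1* and *Sftpc*, summed to 647 to 668 CPM in WT moMs, 3474 to 5007 CPM in WT tnsIMs and 855 to 985 CPM in WT matIMs. *Sftpa1* and *Sftpc* themselves had means of 26.1 and 18.5 CPM in WT moMs, 1718 and 1315 CPM in WT tnsIMs and 172 and 114 CPM in WT matIMs, so other list genes made up most of the moM sum. The 10 endothelial markers, led over all libraries by *Pecam1* and *Calcrl*, summed to 154 to 198 CPM in WT moMs, 468 to 747 CPM in WT tnsIMs and 99.1 to 130.5 CPM in WT matIMs. Both sums were highest in tnsIMs, and so was that of the 10 fibroblast markers, at 33.0 to 51.2 CPM in WT moMs, 139 to 157 CPM in WT tnsIMs and 23.8 to 42.5 CPM in WT matIMs. The WT means of *Cd36*, *Abcg1*, *Lpl*, *Plin2*, *Spp1* and *Gpnmb* were highest in tnsIMs as well. Of these members, only *Cd36* and *Abcg1* passed the main test in WT tnsIMs against both other populations. The 10 neutrophil markers summed to 782 to 877 CPM in WT moMs, 446 to 653 CPM in WT tnsIMs and 262 to 332 CPM in WT matIMs. *Csf3r* and *Mmp8*, at means of 389 and 377 CPM, made up most of that sum in WT moMs. The 10 T and NK cell markers summed to 43.9 to 60.6 CPM in WT moMs, 42.8 to 61.7 CPM in WT tnsIMs and 47.4 to 61.1 CPM in WT matIMs. The 10 B cell markers summed to 104 to 177 CPM in WT moMs, 146 to 207 CPM in WT tnsIMs and 476 to 639 CPM in WT matIMs. *Ighm*, at a mean of 138 CPM, made up most of that sum in WT moMs, where *Cd79a* was at 0.270 CPM. *Cr2* was at 0 in WT moMs and *Pax5* at 0 in Ezr-KOm moMs, and every other marker had counts in each group. *Ctsk* stands both in the alveolar macrophage list and among the profibrotic genes below. In principle the gates on CD11c, CD24 and MHC-II remove alveolar macrophages, dendritic cells and granulocytes. The gate on CD45 would likewise remove epithelial, endothelial and stromal cells. Genes of the marker lists of these types nevertheless had counts in the sorted libraries, at the levels given above. A sum led by few genes need not hold for the rest of its list. *Itgax*, which encodes CD11c, had means of 269 CPM in WT moMs and 657 CPM in WT matIMs. What RNA of other cells adds to the member differences was not tested.

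**Figure D3:**
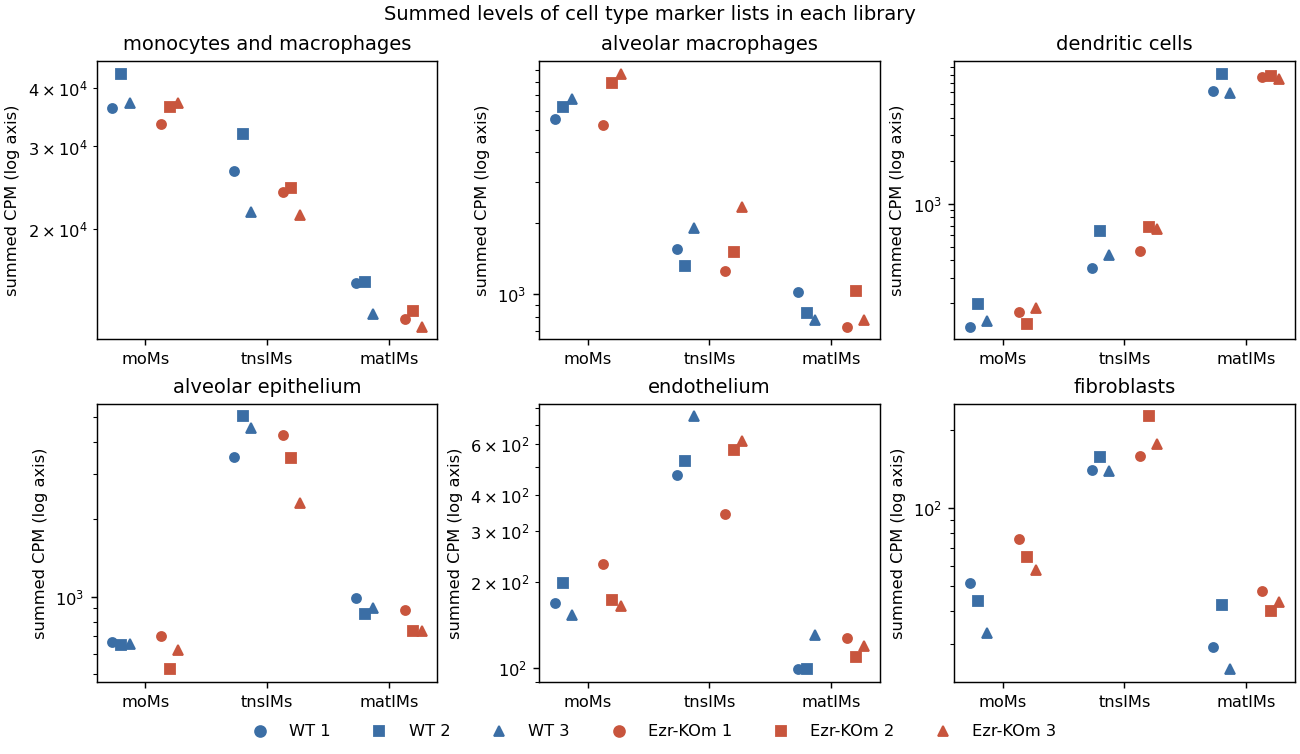
Summed CPM of 6 marker lists (y axis, log scale) by population (x axis), with 1 point a library, shaped by its number and coloured by genotype. Dendritic cell markers reached 5975 to 8118 CPM in WT matIMs, and the epithelial, endothelial and fibroblast lists were highest in tnsIMs.

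The study's own question is what loss of ezrin changes, and for these 10 genes no difference between Ezr-KOm and WT passed the test in any population. In moMs 0 of 10 passed an adjusted p of 0.05 with edgeR or DESeq2, beside 0.171% of all genes with edgeR, and 0 of 10 had an unadjusted p under 0.05, beside 3.74%. In tnsIMs the counts were likewise 0 of 10, beside 0.164% adjusted and 3.24% unadjusted, and in matIMs 0 of 10, beside 0.152% and 3.84%. At such shares a count of 0 among 10 genes does not set them apart. The study's rule took an unadjusted p below 0.05 and a log2 fold change beyond 0.75 in either direction. By it 0 of 10 passed in each population, and of all genes 2.51% did among moMs, 1.83% among tnsIMs and 2.40% among matIMs. Without Ezr-KOm matIMs number 1 that count was 1 in matIMs, with *Spp1* at -0.95. WT and Ezr-KOm libraries did not overlap for 1 of 10 genes in moMs, for 0 of 10 in tnsIMs and for 2 of 10 in matIMs, beside 8.52%, 5.81% and 10.1% of all genes. The median difference of the 10 genes on the log2 scale was 0.23 for moMs, with 9 of them above 0, 0.091 for tnsIMs, with 6, and 0.038 for matIMs, with 6, beside medians of 0.0022, 0.0020 and -0.0014 over all genes.

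The genes whose genotype groups did not overlap were *Apoe*, *Cd36* and *Trem2*. *Apoe* in moMs was higher in each Ezr-KOm library, by 0.34 (95% interval -0.18 to 0.86) on the log2 scale, and by 0.18 without WT moMs number 1. *Cd36* in matIMs was at 0.31 (95% interval -0.13 to 0.75) and *Trem2* in matIMs at -0.26 (95% interval -0.69 to 0.17), and the intervals of all 3 held 0. Without WT matIMs number 1 *Trem2* was at -0.13. In tnsIMs *Cd36* was at -0.30 (95% interval -0.74 to 0.14), at -0.022 without WT tnsIMs number 3, and at -0.11 and -0.49 without Ezr-KOm tnsIMs number 2 and number 3. *Spp1* in matIMs was at -0.57 (95% interval -1.28 to 0.15). Without Ezr-KOm matIMs number 1 it was at -0.95, without number 3 at -0.25, and without WT matIMs number 1 at -0.30. *Fabp5* was at 0.31 (95% interval -0.13 to 0.74) in moMs and at 0.39 (95% interval -0.041 to 0.83) in tnsIMs, with 0.56 and 0.13 in moMs without WT number 2 and number 3, and 0.62 and 0.21 in tnsIMs without WT number 1 and number 2. The summed fibroblast markers were higher in Ezr-KOm than in WT, without overlap, in moMs (57.9 to 75.9 against 33.0 to 51.2 CPM) and in tnsIMs (159 to 226 against 139 to 157 CPM), and their part was not tested.

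Averaged over the 3 populations, 0 of 10 genes passed the adjusted test with edgeR or DESeq2, beside 0.854% of all genes. This average took the 18 libraries as independent, though deviations of same-numbered libraries of the populations correlated at 0.0905 to 0.397. Its intervals and p-values therefore do not measure the spread between animals. For the average, an unadjusted p under 0.05 was found for 2 of 10 genes, beside 8.06% of all genes. *Plin2* was at 0.29 (95% interval 0.046 to 0.53), with an unadjusted p of 0.0225 and an adjusted p of 0.474, and *Fabp5* at 0.25 (95% interval 0.0016 to 0.50), with an unadjusted p of 0.0487 and an adjusted p of 0.614. *Spp1* was at -0.37 (95% interval -0.78 to 0.044), *Apoe* at 0.20 (95% interval -0.10 to 0.50), *Abca1* at 0.21 (95% interval -0.19 to 0.60) and *Gpnmb* at 0.10 (95% interval -0.44 to 0.64). The *Abca1* average was 0.38 without WT moMs number 1, 0.31 without WT tnsIMs number 1 and 0.10 without WT tnsIMs number 2. The *Apoe* average was 0.31 without WT tnsIMs number 2 and 0.13 without Ezr-KOm matIMs number 3. The intervals were narrowest for *Abcg1*, at -0.20 to 0.12, and were -0.23 to 0.26 for *Trem2*, -0.25 to 0.27 for *Cd36* and -0.29 to 0.28 for *Lpl*. *Abcg1* and *Trem2* lie on chromosome 17, as *Ezr* does (7005440 to 7050183). The genotype difference did not differ detectably between populations for any of the 10 genes: 0 of 10 interactions passed with edgeR or DESeq2 and 0 had an unadjusted p under 0.05 in each of the 3 contrasts, beside 0% of all genes at the adjusted threshold and, unadjusted, 1.47% for tnsIMs against moMs, 1.70% for matIMs against moMs and 1.16% for matIMs against tnsIMs.

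**Figure D4:**
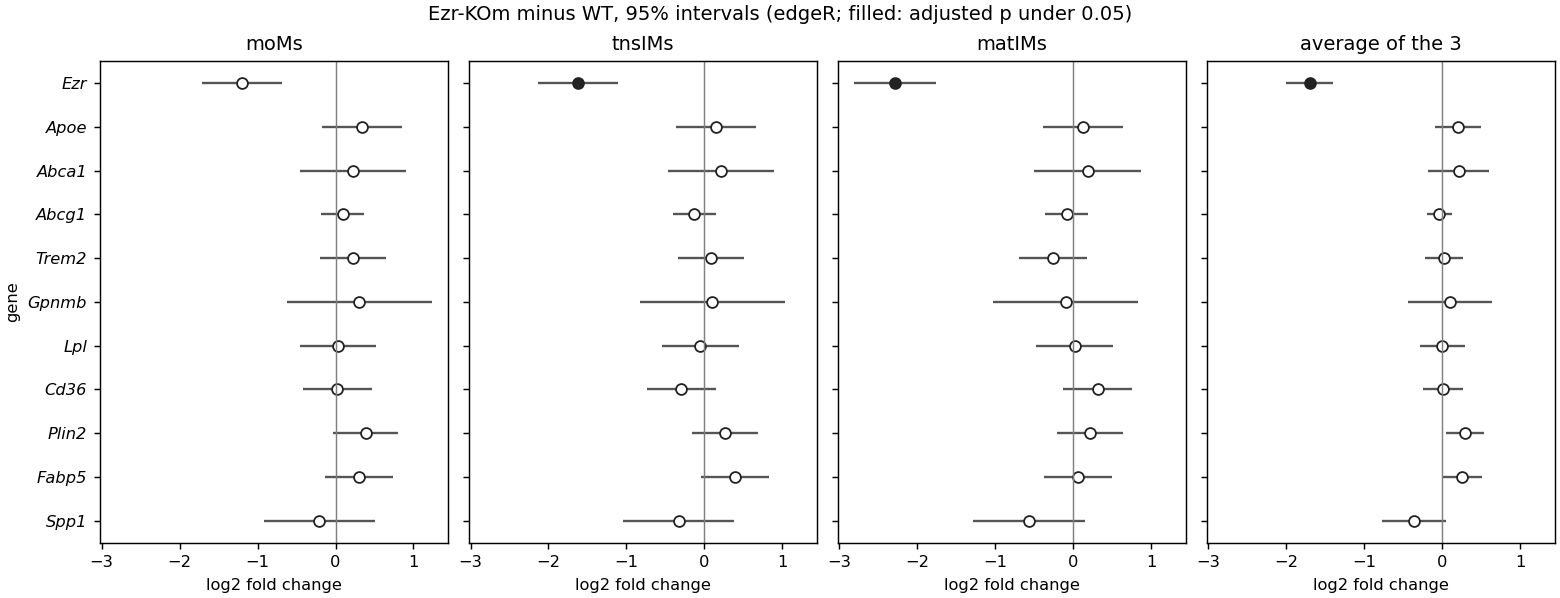
Log2 fold change of Ezr-KOm against WT (x axis) for *Ezr* and the 10 genes in each population and averaged, with 95% intervals of the edgeR fit, filled where the adjusted p was under 0.05. *Ezr* lay left of 0 in each panel, and the intervals of the 10 genes crossed 0 in each single population.

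For *Gpnmb* and *Plin2* the Ezr-KOm library numbered 2 was the highest of its group in all 3 populations. *Gpnmb* in the Ezr-KOm libraries numbered 2 stood 0.87, 1.08 and 0.78 above the group mean of log2 CPM in moMs, tnsIMs and matIMs, and in those numbered 3 it stood at -0.89, -0.81 and -0.68. Its SD within groups was 0.65, at percentile 82.8 of all genes, whose median was 0.33. The sign of the *Gpnmb* genotype difference rested on these libraries. It was 0.30 (95% interval -0.63 to 1.24) in moMs, 0.10 (95% interval -0.83 to 1.03) in tnsIMs and -0.10 (95% interval -1.03 to 0.83) in matIMs. Without the Ezr-KOm library numbered 2 it was -0.23 in moMs and -0.65 in tnsIMs, and without number 3 it was 0.18 in matIMs. WT libraries turned it as well, to -0.010 in tnsIMs without WT number 2 and to 0.054 in matIMs without WT number 1. With the replicate number as a block it was -0.11 in tnsIMs and -0.066 on average. Leaving out all 3 Ezr-KOm libraries numbered 2, a choice made after the data were seen, gave an average of -0.49.

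*Plin2* in the Ezr-KOm libraries numbered 2 stood higher by 0.42, 0.37 and 0.25 over the group mean. In moMs the genotype difference was 0.39 (95% interval -0.034 to 0.81), and 0.15 without Ezr-KOm number 2. In tnsIMs it was 0.26 (95% interval -0.16 to 0.68), 0.054 without it and 0.41 without Ezr-KOm number 3. The average without the 3 libraries numbered 2 was 0.090, with an adjusted p of 0.845 in the edgeR fit. *Ezr* itself was lowest in number 2 of each Ezr-KOm group. No label sets these libraries apart.

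**Figure D5:**
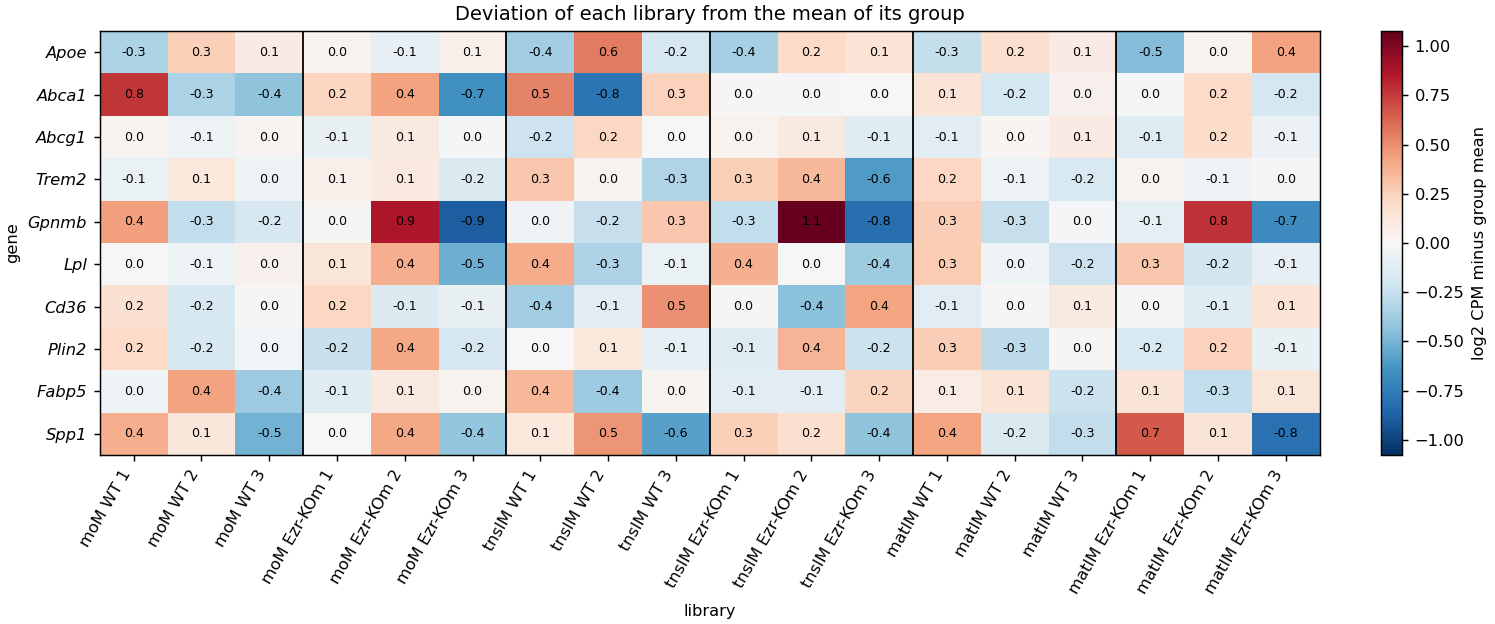
Log2 CPM of each gene (rows) in each library (columns) minus the mean of its group of 3, in log2 units by colour and number. *Gpnmb* was highest in the Ezr-KOm libraries numbered 2 (1.08 in tnsIMs) and lowest in those numbered 3, and *Abcg1* stayed near 0.

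Genes around the members, in lists that leave the members out, were counted with the same test in WT. Of 22 genes of cholesterol synthesis and LDL uptake, 10 were higher and 0 lower in matIMs against moMs, with a median log2 fold change of 0.84 beside 0.013 over all genes. *Pmvk* (1.10, adjusted p = 0.000138) and *Mvk* (1.27, adjusted p = 0.000311), kinases of the mevalonate pathway, had the smallest p. The list had 2 higher and 0 lower in tnsIMs against moMs and 3 higher and 0 lower in matIMs against tnsIMs, where *Srebf2*, the transcription factor of this pathway, was among the higher (0.66, adjusted p = 0.0306). Of 15 genes of cholesterol efflux and LXR response, 2 higher and 5 lower, 1 higher and 5 lower and 0 higher and 3 lower were called in tnsIMs against moMs, matIMs against moMs and matIMs against tnsIMs. *Pltp*, a phospholipid transfer protein, was higher in matIMs than in moMs (1.44, adjusted p = 0.000132), and *Apoc1*, the neighbour of *Apoe* in its gene cluster, was lower (-3.76, adjusted p = 1.05e-06), as was *Smpdl3a* (-2.52, adjusted p = 3.60e-10). The level of *Apoc1* was low, with means of 4.50 CPM in WT moMs and 0.327 CPM in WT matIMs. *Nr1h3*, which encodes LXR alpha, was higher in tnsIMs than in moMs (0.90, adjusted p = 0.000464) and lower again in matIMs (-0.95, adjusted p = 0.000219). Median log2 fold changes of this list were 0.063, -0.17 and -0.12, where those of all genes were 0.015, 0.013 and 0.037.

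Of 26 genes of fatty acid uptake, storage and lipolysis, 2 were higher and 2 lower in tnsIMs against moMs, 5 higher and 7 lower in matIMs against moMs and 2 higher and 4 lower in matIMs against tnsIMs, with medians of -0.071, -0.12 and -0.0044. *Fabp4*, the adipocyte and macrophage relative of *Fabp5*, was higher in matIMs than in moMs (2.36, adjusted p = 7.59e-06), with *Cidec*, a droplet protein (3.39, adjusted p = 0.00193) of low level (means of 0.131 CPM in WT moMs and 1.45 CPM in WT matIMs). *Msr1*, a scavenger receptor for modified lipoproteins (-1.72, adjusted p = 8.51e-08), and *Dgat2*, which makes triglyceride (-1.27, adjusted p = 7.28e-06), were lower. *Angptl4*, a secreted inhibitor of LPL, was higher in tnsIMs than in moMs (1.94, adjusted p = 0.000362). Of the 4 LPL partners, 1 higher and 1 lower, 0 higher and 2 lower and 0 higher and 1 lower were called in the same order of comparisons. *Gpihbp1*, the endothelial anchor of LPL, was higher in tnsIMs than in moMs (2.24, adjusted p = 4.72e-05) and lower in matIMs than in tnsIMs (-3.62, adjusted p = 4.78e-07), as the summed endothelial markers were. The medians were 0.10, -0.15 and 0.10.

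Of 20 genes of TREM2 signalling and of lipid-associated macrophages, 5 were higher and 2 lower in tnsIMs against moMs, 6 higher and 8 lower in matIMs against moMs and 1 higher and 3 lower in matIMs against tnsIMs, with medians of 0.10, -0.34 and -0.15. *Cst7*, a protease inhibitor (2.16, adjusted p = 1.38e-05), and *Itgax*, which encodes CD11c (1.29, adjusted p = 1.68e-05), were higher in matIMs than in moMs. The lysosomal proteases *Ctsl* (-1.32, adjusted p = 0.000210) and *Ctsb* (-0.75, adjusted p = 0.00201) were lower there. In tnsIMs against moMs *Axl* (1.27, adjusted p = 8.41e-05) and *Itgax* (1.05, adjusted p = 0.000243) were higher. *Plcg2* (-0.62, adjusted p = 0.00242) and *Syk*, the kinase downstream of TYROBP (-0.53, adjusted p = 0.0193), were lower in that comparison. Of 6 regulators of *Gpnmb* and of lysosome genes, 0 higher and 1 lower, 0 higher and 3 lower and 0 higher and 2 lower were called, with *Tfec*, of the MiT family (-1.67, adjusted p = 1.53e-06), and *Flcn*, which holds these factors in the cytoplasm (-0.64, adjusted p = 0.00265), lower in matIMs than in moMs. The medians of these 6 were -0.15, -0.48 and -0.34. Of 5 apolipoprotein E and lipoprotein receptors, 1 higher and 3 lower, 1 higher and 3 lower and 1 higher and 1 lower were called. *Lrp8* was higher (0.86, adjusted p = 0.00218) and the sorting receptors *Sort1* (-2.64, adjusted p = 8.47e-06) and *Sorl1* (-1.81, adjusted p = 1.84e-05) lower in matIMs than in moMs, and the medians were -0.60, -1.41 and -0.51.

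Of 15 profibrotic genes of SPP1 macrophages, 6 were higher and 1 lower in tnsIMs against moMs, 4 higher and 6 lower in matIMs against moMs and 2 higher and 7 lower in matIMs against tnsIMs, with medians of 0.62, -0.44 and -0.78. The growth factor genes *Pdgfb* (1.66, adjusted p = 3.73e-06) and *Pdgfc* (4.07, adjusted p = 1.61e-05) were higher in matIMs than in moMs. The level of *Pdgfc* was low, with means of 0.169 CPM in WT moMs and 3.03 CPM in WT matIMs. *Thbs1*, a matrix glycoprotein (-3.86, adjusted p = 8.55e-08), and *Arg1*, arginase (-2.71, adjusted p = 3.13e-05), were lower in matIMs than in moMs. Of 8 osteopontin receptors, 1 higher and 1 lower, 1 higher and 4 lower and 1 higher and 3 lower were called, with medians of -0.24, -0.69 and -0.46. The integrin subunits *Itgb5* (-1.04, adjusted p = 3.02e-05) and *Itga5* (-0.67, adjusted p = 0.00252) were lower in matIMs than in moMs, and *Itga9* was higher (0.70, adjusted p = 0.0161).

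In Ezr-KOm the same lists were counted in matIMs against moMs. Cholesterol synthesis and LDL uptake had 9 higher and 0 lower with a median of 0.69, cholesterol efflux and LXR response 1 higher and 5 lower with -0.28, and fatty acid handling 4 higher and 6 lower with -0.050. The TREM2 list had 5 higher and 9 lower with a median of -0.44, the profibrotic list 4 higher and 7 lower with -0.50, the osteopontin receptors 1 higher and 4 lower with -0.74, and the lipoprotein receptors 1 higher and 3 lower with -1.51. The LPL partners had 1 higher and 1 lower with a median of -0.055 and the regulators of *Gpnmb* 0 higher and 3 lower with -0.51. Whether these counts differ between the genotypes was not tested.

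Between genotypes, 2 of the list genes passed the adjusted test. *Lmf1*, the chaperone that lets LPL leave the endoplasmic reticulum, was lower in Ezr-KOm moMs (log2 fold change -0.75, adjusted p = 0.0156) and on average over the populations (log2 fold change -0.63, adjusted p = 8.08e-05). It lies on chromosome 17 from 25798059 to 25881800, the chromosome of *Ezr*, and the part of the region flanking the floxed gene was not tested. *Angptl4* was higher on average (log2 fold change 0.84, adjusted p = 0.0331), and in the single populations its adjusted p was at least 0.591. The averages of *Lmf1* and *Angptl4* also took the 18 libraries as independent. *Lpl* itself had a genotype interval of -0.29 to 0.28 on average.

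The genes with the pattern most like each member were found by the root mean square difference of log2 CPM over the 18 libraries, each gene centred on its own mean. For *Apoe* these were *Serpinb8* (0.21), *C130050O18Rik* (0.28) and *Tfec* (0.29), for *Abca1* *Slc38a6* (0.23), *Gas2l3* (0.25) and *Chka* (0.26) and for *Abcg1* *B4galt7* (0.11), *Aen* (0.11) and *Peds1* (0.13). For *Trem2* they were *Ctsl* (0.20), *Lst1* (0.21) and *Arhgap24* (0.23), of which *Ctsl* is a lysosomal protease and a gene of the TREM2 list above. The nearest to *Gpnmb* were *Gm41077* (0.32), *Rnf128* (0.34) and *Gdpd3* (0.34). The nearest to *Cd36* were *Slco3a1* (0.25), *Arhgef12* (0.27) and *Axl* (0.28), of which *Axl* is a receptor for dying cells. Those of *Fabp5* were *Aebp2* (0.28), *Il7r* (0.28) and *Tk1* (0.30), those of *Lpl* *Timm10* (0.22), *Arhgap10* (0.22) and *Psat1* (0.22), those of *Plin2* *Fam114a1* (0.18), *Acp2* (0.19) and *Mafg* (0.20) and those of *Spp1* *Nt5dc2* (0.32), *Penk* (0.36) and *C5ar1* (0.36). *Il7r* encodes a cytokine receptor and *C5ar1* the receptor of complement C5a. Among the members themselves, *Apoe* and *Trem2* were each nearest to the other (0.42), and *Abcg1* and *Plin2* were also nearest to each other (0.28). *Fabp5* stood farthest from the rest, with *Cd36* the nearest member at 0.80. These distances are descriptions over libraries that share populations and replicate numbers.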

How the data were processed

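Per the labels and the study's methods, cDNA was made with the SMART-Seq v4 low-input kit from RNA with an integrity number of at least 8 and libraries with Nextera XT. The submitters' processing notes name FastQC, STAR 2.7.9a, edgeR and GRCm39, and the methods name the GeneCounts output of STAR with a Gencode annotation. The authors deposited whole-number read counts per gene for 18 libraries, without normalization, and which strand column was taken is not given in the sources used here. Totals were 16512783 to 48460995 counts a library. With 3 libraries a group, the spread between them sets the precision. No pair of libraries of a group agreed within sampling noise (chi-square per gene 27.1 to 123).

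Counts were analysed with edgeR 4.0.16 and limma 3.58.1 in R 4.3.3. filterByExpr with a minimum count of 10 kept 15811 genes, TMM factors were used, and a quasi-likelihood model of the 6 groups gave 2-sided tests with Benjamini-Hochberg adjustment over all genes kept. Log2 CPM used a prior count of 2. DESeq2 1.42.0, other scalings and filters, blocks, separate fits and libraries left out were the alternatives. The members and lists were chosen with earlier results of these data known. All members are named. Of each list, up to 2 called genes per direction were eligible to be named, by lowest p, and 3 genes per member by likeness over libraries. The pipeline was checked on simulated counts. Deviations from the group mean correlated at 0.102 to 0.316 between same-numbered libraries of both genotypes, and at most 0.0508 otherwise, and between populations at 0.0905 to 0.397 against at most 0.0316, with the moM and matIM pairs partly under 0.1. In the alternatives with a block, numbers were therefore taken to pair the genotypes and the populations. The main fit held no pairing term, and some calls changed with the block, as given with the genes. Copies were sought with BLAST at 90% identity and 80% cover. The columns of the deposited table outside the counts hold gene annotation.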

Additional observations from a re-analysis of the deposited data

How the results depend on the processing

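Of 391 repeats of the population differences that passed the test, 347 passed again, 44 missed the threshold in the same direction and 0 turned. The members called in tnsIMs against moMs fell from 2 to 1 in Ezr-KOm with upper-quartile normalization and to 1 without the 3 Ezr-KOm libraries numbered 2, an alternative chosen after seeing the data. With single libraries left out they ranged from 1 to 2 in Ezr-KOm and from 1 to 3 in WT, and by the rule of the study in matIMs from 0 to 1 for Ezr-KOm against WT. The same alternative lost the Ezr-KOm calls of *Trem2* in tnsIMs against moMs and of *Abcg1* and *Plin2* in matIMs against tnsIMs. The cause was not tested. The *Gpnmb* genotype difference turned sign with the replicate block (-0.11 in tnsIMs, -0.066 on average) and without the 3 libraries numbered 2 (-0.24 in moMs, -0.66 in tnsIMs, -0.49 on average). With 1 library left out it ranged from -0.23 to 0.63 in moMs, from -0.65 to 0.45 in tnsIMs, from -0.59 to 0.18 in matIMs and from -0.15 to 0.22 on average. The block by genotype and number also called matIMs against moMs for *Plin2* (WT log2 fold change -0.37, adjusted p = 0.0287, Ezr-KOm log2 fold change -0.52, adjusted p = 0.00371) and *Gpnmb* (Ezr-KOm log2 fold change -0.56, adjusted p = 0.0108). Deviations of same-numbered moM and matIM libraries correlated at 0.0947 to 0.229 in WT and 0.0905 to 0.264 in Ezr-KOm, against at most 0.00944 and 0.0316 for other numbers. The block changed no other call than these of *Plin2* and *Gpnmb* and those given with the genes. Over all genes, DESeq2 called 55, 55, 52 and 230 genes between genotypes in moMs, tnsIMs, matIMs and on average, where edgeR called 27, 26, 24 and 135. The replicate block gave 42 in moMs, 38 in matIMs and 218 on average, a minimum of 10 counts in every library 13 in matIMs, and tnsIMs alone 7. Between populations that minimum left 1760 of 2926 calls in WT and 1837 of 2881 in Ezr-KOm for matIMs against tnsIMs, and 1439 of 2257 in Ezr-KOm tnsIMs against moMs, since it tested fewer genes. The block by genotype and number gave 3403 in the last. Scaled by library totals, the median log2 fold change of all genes in Ezr-KOm matIMs against moMs was 0.13 instead of 0.0067, and the 5 members called there kept their directions.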
